A study of Mus musculus with 9 samples.

Results

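Endoplasmic reticulum chaperone and unfolded protein response genes were described in whole mouse hearts as a set of 10 genes: Hspa5, Hsp90b1, Pdia4, Dnajb9, Sdf2l1, Calr, Creld2, Manf, Xbp1 and Herpud1. They were chosen by gene symbol, from the known biology of the pathway, with earlier results of these data known. All 10 were found among the 55401 rows of the deposited count table, each in 1 row. Proteins that enter the endoplasmic reticulum fold there with the help of chaperones and disulfide isomerases, and when folding falls behind, the sensors IRE1, ATF6 and PERK start the unfolded protein response. IRE1 splices the mRNA of Xbp1, cleaved ATF6 and the spliced XBP1 protein switch on chaperone and degradation genes, and PERK slows translation and raises ATF4. In heart muscle the same compartment is continuous with the calcium store that drives contraction, and in fibroblasts it folds procollagen.

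The hearts fell into 3 groups of 3 libraries each. KO-TAC hearts were from c-Myc knockout mice (c-Myc flox/flox with Tcf21 iCre, a tamoxifen-inducible Cre driven by a cardiac fibroblast gene) after transverse aortic constriction (TAC), in which a ligature around the aorta raises the pressure against which the left ventricle pumps. TAC hearts came from wild-type mice that had the same operation, and both TAC groups carry a time of 12 weeks in their titles. Control hearts, also wild-type, correspond to the sham operation that the design names. The mice were males of 8 to 12 weeks at the operation. The knockout line was given tamoxifen, 45 mg/kg daily over 5 days, while its use in the wild-type groups was not given in the sources used here. Hearts of knockout mice without TAC, or with Cre alone, were not analysed here, so Myc loss, Cre and tamoxifen cannot be told apart. The knockout is described for fibroblasts only, while RNA was extracted from the whole organ.

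Myc was counted at 4.22, 1.87 and 4.75 CPM (read counts scaled to library size with TMM factors) in the KO-TAC hearts, at 8.93, 6.22 and 14.2 CPM in the TAC hearts, and at 2.15, 2.47 and 1.55 CPM in the control hearts. The KO-TAC hearts thus all lay below the TAC hearts, in the direction of their label. Total counts were 59702513 (TAC replicate 3) to 109162107 (KO-TAC replicate 1) per library, and the 10 genes held from 166 to 40377 counts in a library. The TAC hearts stood apart from one another: the median SD of log2 CPM over all genes was 0.33 in KO-TAC, 0.604 in TAC and 0.171 in control hearts. The summed CPM of 15 cardiomyocyte markers was 58376, 84789 and 92343 in KO-TAC replicates 1, 2 and 3, against 55988, 107607 and 16828 in TAC replicates 1, 2 and 3, with control hearts at 95695 to 97841. All 15 were detected in every group, which marks the tissue as heart, and TAC replicate 3 was lowest. In whole-organ RNA, fewer cells of a type and less RNA per cell cannot be told apart.

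Where the 10 genes lie and how their promoters read is given first, because the response acts through short DNA elements. Hspa5 encodes BiP, the Hsp70 chaperone of the endoplasmic reticulum that also holds the sensors inactive, and lies on chromosome 2 (34771970 to 34777547, GRCm38, plus strand). Hsp90b1 (GRP94, the Hsp90 of the compartment) lies on chromosome 10 (86690209 to 86705509, minus strand), Calr (calreticulin, a calcium-binding lectin chaperone) on chromosome 8 (84841850 to 84846934, minus strand) and Herpud1 (a membrane protein of endoplasmic reticulum-associated degradation) also on chromosome 8 (94386438 to 94395377, plus strand). Creld2, a stress-induced protein with disulfide isomerase activity, lies on chromosome 15 (88819646 to 88826683, plus strand). Dnajb9 (ERdj4, a J-domain partner of BiP) lies on chromosome 12, Pdia4 (ERp72, a disulfide isomerase) on chromosome 6, Sdf2l1 (a component of BiP chaperone complexes) on chromosome 16, Manf (a small secreted protein that binds BiP) on chromosome 9 and Xbp1 on chromosome 11.

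The endoplasmic reticulum stress element (ERSE) is the letters CCAAT, any 9 bases, then CCACG, and is known to be bound by NF-Y at its CCAAT end and by ATF6 or XBP1 at its CCACG end. RefSeq promoter windows of 300 bases (GRCm38.p6, from 250 before to 50 after each transcript start) were found for 9 of the 10 genes, all but Manf, and both strands were searched. An ERSE was present in 4 of the 9, Hspa5, Hsp90b1, Calr and Creld2, with 2 copies in Hsp90b1, beside 0.119% of all 32851 windows. It was not particular to the members. Of other chaperones and foldases with a window, 3 of 26 held it (Canx, Dnajc3 and Pdia6), and of degradation genes 2 of 16 (Derl3 and Syvn1). ERSE-II (ATTGG, any base, CCACG) was present in Herpud1, at -52 to -42 from the start, beside 0.0365% of all windows. The core of the unfolded protein response element (TGACGTG) was present in Hspa5, beside 2.01%, and the C/EBP-ATF element TTGCATCA, a form that ATF4 is known to bind, in Herpud1, beside 0.895%. The E-box CACGTG, which Myc and Max are known to bind, was present in Calr and Dnajb9, beside 7.15%, and none of the 7 searched elements was present in the Xbp1 window. These are matches of letters, not sites shown to be bound. Members and stress elements were both taken from the known biology of this response. The shares are thus not read as independent enrichment, which was not tested.

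The stretches that hold these elements are printed 5′ to 3′ from RefSeq, GRCm38.p6. The fixed letters of each element are alike because the search required them. They are read on the strand on which the element runs in the orientation above, with 10 bases on each side, and the capitals mark both ends of each ERSE or ERSE-II, the unfolded protein response core in Hspa5 and the C/EBP-ATF element in Herpud1. The Hspa5 stretch is chr2:34771923-34772053 on the plus strand, from -167 to -37. Positions count from the RefSeq start, which for Hspa5 lies inside the gene span given above, as does part of this stretch. The Hsp90b1 elements are chr10:86705628-86705666 on the minus strand, which lies farther from the start, and chr10:86705523-86705561 on the plus strand. The Calr element is chr8:84847065-84847103 on the plus strand, the Creld2 element chr15:88819510-88819548 on the minus strand, and the Herpud1 stretch chr8:94386307-94386397 on the plus strand.
Hspa5: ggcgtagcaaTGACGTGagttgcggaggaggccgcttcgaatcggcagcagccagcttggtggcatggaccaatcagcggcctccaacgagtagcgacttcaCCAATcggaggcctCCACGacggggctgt
Hsp90b1 (far): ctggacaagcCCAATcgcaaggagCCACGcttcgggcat
Hsp90b1 (near): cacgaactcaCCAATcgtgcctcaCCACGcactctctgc
Calr: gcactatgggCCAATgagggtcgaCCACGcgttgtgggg
Creld2: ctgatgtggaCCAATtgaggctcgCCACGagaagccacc
Herpud1: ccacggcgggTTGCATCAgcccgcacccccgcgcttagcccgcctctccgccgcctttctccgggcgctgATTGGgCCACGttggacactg

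The ERSE copies differed in place and strand. They lay at -65 to -47 in Hspa5, at -212 to -194 and -107 to -89 in Hsp90b1, at -162 to -144 in Calr and at -126 to -108 in Creld2. The copies in Calr, Creld2 and the near one of Hsp90b1 ran against the direction of transcription. The single ends are common: CCAAT was present in 8 of 9 windows and in 37.4% of all windows, and CCACG in 8 of 9 and in 32.8%, both counts including the copies inside an ERSE or ERSE-II.

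**Figure D1:**
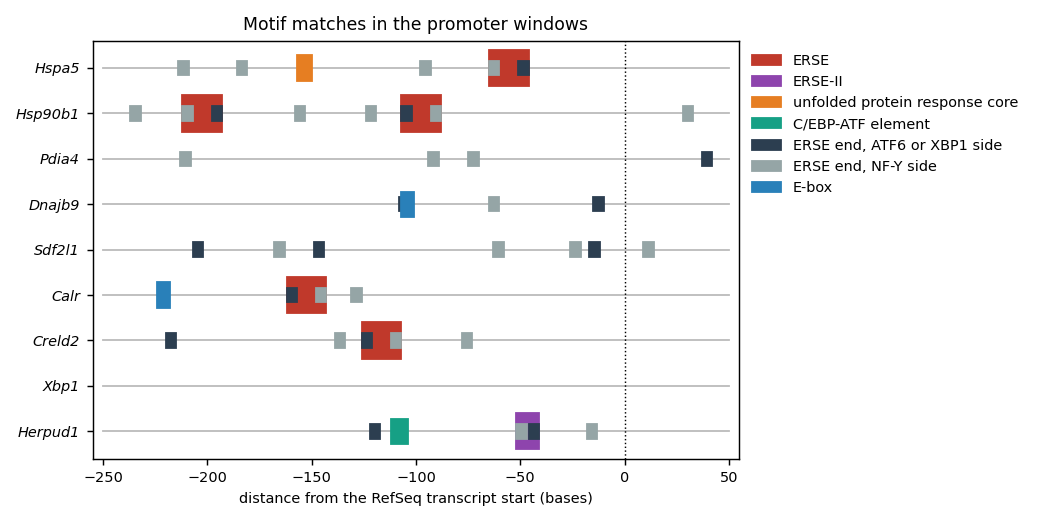
Motif matches along the promoter windows of 9 genes, with the distance from the RefSeq transcript start in bases on the horizontal axis and 1 line per gene. Red boxes mark ERSE copies in Hspa5, Hsp90b1, Calr and Creld2, the purple box ERSE-II in Herpud1, orange the unfolded protein response core, green the C/EBP-ATF element, blue the E-box, and small boxes the single ERSE ends wherever they occur, and the Xbp1 line is empty.

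The 10 genes spanned a wide range of levels. Exon length was the union of all annotated exons of a gene, from 1108 bases for Sdf2l1 to 4229 for Hspa5. This union can be longer than the mRNA present, so the order per kilobase and its steps depend on that choice. Per kilobase of exon, Hspa5 averaged 71.6 CPM in KO-TAC, 67.2 CPM in TAC and 106 CPM in control hearts, and Sdf2l1 averaged 3.07, 3.18 and 2.89 CPM in the same order. In control hearts the order of CPM per kilobase was Hspa5 (106), Calr (76.2), Hsp90b1 (72.2), Herpud1 (57.4), Dnajb9 (15.1), Xbp1 (12.4), Pdia4 (9.8), Manf (6.12), Creld2 (5.27) and Sdf2l1 (2.89). Neighbours in that order overlapped over the hearts only for Calr with Hsp90b1 and for Manf with Creld2. Without division by length, Manf (mean 21.6 CPM) and Creld2 (mean 7.19 CPM) stood apart in control hearts. In TAC hearts Calr came first at 76.1 CPM per kilobase, and every neighbouring pair overlapped except Manf (8.55) with Sdf2l1 (3.18). In KO-TAC hearts only 2 steps separated, from Herpud1 (50.7) to Xbp1 (12.0) and from Manf (6.22) to Sdf2l1, so the genes fell into 4 abundant ones, 5 of middle level and Sdf2l1.

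Among the abundant chaperones, Hspa5 was counted at 182, 272 and 455 CPM in KO-TAC replicates 1, 2 and 3, at 220.0, 417 and 216 CPM in TAC replicates 1, 2 and 3, and at 413, 443 and 483 CPM in the control replicates. Its low hearts were KO-TAC replicates 1 and 2 and TAC replicates 1 and 3, while the remaining heart of each operated group reached the control range. Hsp90b1 had the same low hearts, at 168, 191 and 279 CPM in KO-TAC, 209, 283 and 206 CPM in TAC, and 269, 298 and 306 CPM in control hearts. Dnajb9, the BiP partner, was at 24.4, 26.4 and 37.8 CPM in KO-TAC, 22.1, 38.8 and 14.6 CPM in TAC, and 36.2, 38.1 and 41.5 CPM in control hearts. It was lowest of all in TAC replicate 3, and the TAC range of 2.66 times from lowest to highest heart enclosed the lower part of the control range. Sdf2l1, the least abundant of the set, was at 2.22, 3.16 and 4.81 CPM in KO-TAC, 3.27, 2.67 and 4.62 CPM in TAC, and 2.15, 3.56 and 3.91 CPM in control hearts. Its groups overlapped across most of their range.

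Calr, the lectin chaperone, was at 141, 168 and 214 CPM in KO-TAC, at 213, 222 and 222 CPM in TAC, and at 201, 237 and 220.0 CPM in control hearts. It was the steadiest of the set over the TAC hearts, within 1.04 times from lowest to highest, and KO-TAC replicates 1 and 2 lay below every other heart. Pdia4, the disulfide isomerase, was at 17.9, 20.0 and 24.6 CPM in KO-TAC, 30.1, 23.3 and 34.2 CPM in TAC, and 21.0, 26.1 and 23.4 CPM in control hearts. TAC replicates 1 and 3 were its highest hearts, whereas TAC replicate 2 lay among the controls. Creld2 was at 7.52, 8.7 and 11.8 CPM in KO-TAC, at 11.3, 9.37 and 21.5 CPM in TAC, and at 7.47, 6.53 and 7.58 CPM in control hearts. All 3 TAC hearts lay above all 3 control hearts, and TAC replicate 3 stood far above the rest.

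Manf was at 19.7, 19.5 and 26.5 CPM in KO-TAC, at 25.9, 26.2 and 38.2 CPM in TAC, and at 19.1, 22.3 and 23.3 CPM in control hearts. Here too the TAC hearts all lay above the control hearts. Xbp1, the transcription factor of the IRE1 arm, was at 35.5, 36.1 and 45.6 CPM in KO-TAC, 42.8, 45.5 and 80.7 CPM in TAC, and 37.3, 43.7 and 39.7 CPM in control hearts. TAC replicate 3 was high and the other 8 hearts lay close together, and gene counts do not separate its spliced from its unspliced mRNA. Herpud1, the degradation component, was at 113, 125 and 118 CPM in KO-TAC, at 98.0, 247 and 54.2 CPM in TAC, and at 125, 142 and 134 CPM in control hearts. It varied most of the set among TAC hearts, 4.56 times from lowest to highest, with TAC replicate 2 above and TAC replicates 1 and 3 below every other heart. Herpud1, Hsp90b1 and Manf overlap other annotated genes, in part on the opposite strand, and Calr has a named pseudogene; how the counting treated strand was not given in the sources used here, so some of their counts may belong to those partners.

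**Figure D2:**
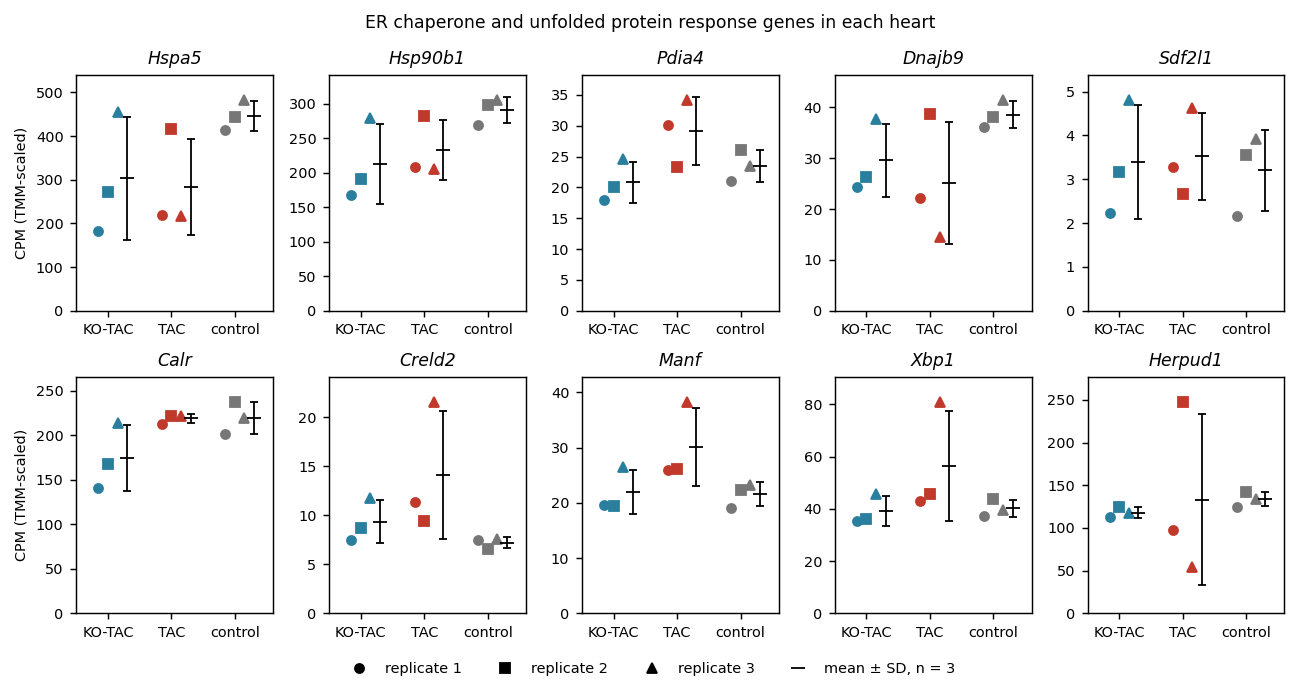
CPM of the 10 genes in each heart (vertical axes start at 0), with KO-TAC, TAC and control from left to right, a symbol per replicate and the mean ± SD of 3 hearts beside them. The TAC points of Herpud1 run from 54.2 to 247 CPM and those of Calr from 213 to 222 CPM, while the control points of each gene lie close together except for Sdf2l1.

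Comparison of TAC with control asked how the set stood in pressure-loaded wild-type hearts. Creld2 averaged 14.1 ± 6.5 CPM in TAC and 7.19 ± 0.58 CPM in control hearts, and Manf 30.1 ± 7.0 CPM in TAC and 21.6 ± 2.2 CPM in control hearts (SD, n = 3 each). Hspa5 averaged 284 ± 110 CPM in TAC and 446 ± 35 CPM in control hearts, and Dnajb9 25.2 ± 12 CPM in TAC and 38.6 ± 2.7 CPM in control hearts. No member passed edgeR's quasi-likelihood test at a Benjamini-Hochberg adjusted p under 0.05 (0 of 10), where 0.00% of the 19051 genes tested passed. At an unadjusted p under 0.05 there were 2 members, Creld2 and Manf, beside 21.3% of all genes, and the same 2 were the only members whose TAC hearts all lay above the controls, beside 14.1% of all genes. None had all TAC hearts below the controls, beside 14.0%. With only 10 members, none of these shares is read as a difference from the background, which was not tested.

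The members did not share a direction. The log2 difference of TAC from control was 0.97 for Creld2 (SE 0.32, 1.95-fold, edgeR adjusted p = 0.16), 0.48 for Manf (SE 0.21, adjusted p = 0.23 by edgeR), 0.49 for Xbp1 (SE 0.26, adjusted p = 0.30 by edgeR) and 0.31 for Pdia4. It was -0.65 for Hspa5 (SE 0.39, adjusted p = 0.34 by edgeR), -0.62 for Dnajb9 (SE 0.33, adjusted p = 0.30 by edgeR) and -0.32 for Hsp90b1. Sdf2l1 (0.14), Calr (0.00) and Herpud1 (-0.01) stood near 0, Herpud1 with an SE of 0.45 that matches its wide TAC range. In all, 5 of 10 members had positive values, with a median of 0.07 beside 0.03 over all genes. The 4 members whose windows hold an ERSE ran from -0.65 for Hspa5 through -0.32 for Hsp90b1 and 0.00 for Calr to 0.97 for Creld2. These 4 thus did not share a direction in this comparison, in which edgeR called none of them. Over the 9 libraries, Pearson's r of log2 CPM was 0.96 for Hspa5 with Hsp90b1, 0.60 for Hspa5 with Calr and 0.77 for Hsp90b1 with Calr. Creld2 had r of -0.40 with Hspa5, -0.28 with Hsp90b1 and 0.25 with Calr.

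Leaving out TAC replicate 2 changed these calls. Without it, edgeR called Dnajb9 (log2 difference -1.08, adjusted p = 0.018), Creld2 (1.18, adjusted p = 0.02) and Herpud1 (-0.82, adjusted p = 0.046), beside 27.5% of all genes called. DESeq2 without that heart, chosen after seeing the data, called the same 3 and Hspa5 (-1.03, adjusted p = 0.013), beside 36.6% of all genes. With limma-voom and quality weights, which give deviating libraries less weight, Hspa5 (-0.96, adjusted p = 0.0069), Dnajb9 (-0.80, adjusted p = 0.0045) and Creld2 (0.68, adjusted p = 0.011) were called, beside 38.0% of all genes. DESeq2 on all 9 libraries called none of the 10, beside 8.55% of all genes. Without TAC replicate 3 instead, edgeR called no member and the log2 differences were smaller, at 0.51 for Creld2, 0.26 for Manf, 0.12 for Xbp1, 0.17 for Pdia4, -0.35 for Dnajb9 and -0.50 for Hspa5, while Herpud1 stood at 0.36 and Sdf2l1 at -0.12.

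**Figure D3:**
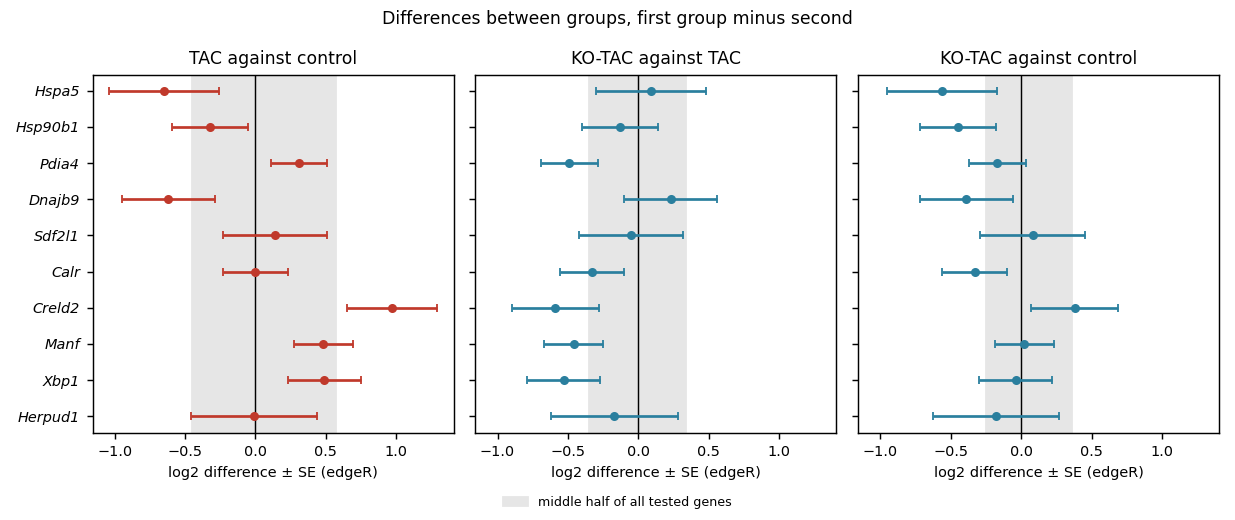
Log2 differences with their SE from the edgeR fit for the 10 genes (rows) in TAC against control, KO-TAC against TAC and KO-TAC against control (panels), positive where the first-named group is higher. Grey marks the interquartile range of all tested genes; Creld2 at 0.97 and Hspa5 at -0.65 are the ends of the first panel.

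Comparison of KO-TAC with TAC asked whether fibroblast Myc deletion was accompanied by a different level of the set under the same load. Pdia4 averaged 20.8 ± 3.4 CPM in KO-TAC and 29.2 ± 5.5 CPM in TAC hearts, Manf 21.9 ± 4.0 CPM in KO-TAC and 30.1 ± 7.0 CPM in TAC hearts, and Xbp1 39.1 ± 5.7 CPM in KO-TAC and 56.4 ± 21 CPM in TAC hearts (SD, n = 3 each). No member passed the test (0 of 10, edgeR, beside 0.00% of all genes), and DESeq2 also called none, beside 1.03% of all genes. Pdia4 alone had an unadjusted p under 0.05 (1 of 10, beside 7.45% of all genes). No member separated the groups in either direction, beside 5.17% of genes with all KO-TAC hearts higher and 4.80% with all lower.

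As a log2 difference, KO-TAC minus TAC was -0.49 for Pdia4 (SE 0.20, edgeR adjusted p = 0.66), -0.59 for Creld2 (SE 0.31, edgeR adjusted p = 0.69), -0.53 for Xbp1 (SE 0.26, edgeR adjusted p = 0.67), -0.46 for Manf (SE 0.21, edgeR adjusted p = 0.67) and -0.33 for Calr. It was 0.23 for Dnajb9 and 0.09 for Hspa5, the 2 positive values, and -0.17, -0.13 and -0.05 for Herpud1, Hsp90b1 and Sdf2l1. The median over the 10 was -0.25, beside 0.01 over all genes. The TAC hearts serve in both comparisons, so a gene that is high in them tends to be positive against control and negative here: Creld2, Manf, Xbp1 and Pdia4 had 0.97, 0.48, 0.49 and 0.31 in TAC against control and -0.59, -0.46, -0.53 and -0.49 in KO-TAC against TAC. Pdia4 was the single member called in any setting of this comparison, with DESeq2 and without TAC replicate 2 (log2 difference -0.64, adjusted p = 0.026), beside 23.1% of all genes. Without TAC replicate 3, edgeR gave -0.14 for Creld2, -0.17 for Xbp1, -0.24 for Manf and -0.35 for Pdia4 in KO-TAC against TAC.

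Comparison of KO-TAC with control set the loaded knockout hearts beside unloaded wild-type hearts. Hspa5 averaged 303 ± 140 CPM in KO-TAC and 446 ± 35 CPM in control hearts, and Hsp90b1 213 ± 58 CPM in KO-TAC and 291 ± 19 CPM in control hearts, while Manf (21.9 ± 4.0 CPM in KO-TAC, 21.6 ± 2.2 CPM in control hearts) and Xbp1 (39.1 ± 5.7 CPM in KO-TAC, 40.2 ± 3.2 CPM in control hearts) were within their SDs of each other (n = 3 each). No member passed (0 of 10, edgeR, beside 0.00% of all genes; DESeq2 also 0, beside 0.468%), and none had an unadjusted p under 0.05, beside 5.76%. Herpud1 was the 1 member with all KO-TAC hearts below the controls, beside 13.6% of all genes, at 118 ± 6.0 CPM in KO-TAC and 134 ± 8.6 CPM in control hearts, and no member had them all above, beside 12.9%.

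The log2 differences of KO-TAC from control were -0.56 for Hspa5 (SE 0.39, edgeR adjusted p = 0.86), -0.45 for Hsp90b1 (SE 0.27, edgeR adjusted p = 0.86), -0.39 for Dnajb9, -0.33 for Calr, -0.18 for Herpud1 and -0.17 for Pdia4. They were 0.38 for Creld2, 0.08 for Sdf2l1, 0.02 for Manf and -0.04 for Xbp1. The median was -0.18, beside 0.04 over all genes, and 3 of 10 members were positive.

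Within single hearts, the members fell into genes that were low and genes that were high in the same library. Relative to the control mean on the log2 scale, TAC replicate 3 had Dnajb9 at -1.40, Herpud1 at -1.30 and Hspa5 at -1.04, and Creld2 at 1.58, Xbp1 at 1.01 and Manf at 0.83. In TAC replicate 1 the same genes had the same signs, with Hspa5 at -1.02, Dnajb9 at -0.80 and Herpud1 at -0.45. Creld2 stood at 0.66 and Manf at 0.27 there, while Xbp1, at 0.09, lay within the range of the control hearts (-0.11 to 0.12). TAC replicate 2 had all members but Herpud1 (0.89) between -0.22 and 0.38. KO-TAC replicate 1 was different, with 9 of 10 members at or below -0.12 and Creld2 at 0.07, and KO-TAC replicate 3 was near control except for Creld2 (0.72), Sdf2l1 (0.63) and Manf (0.30).

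The CPM ratio of Hspa5 to Creld2, a gene from each side of that split, was 24.3, 31.2 and 38.5 in the KO-TAC hearts, 19.4, 44.5 and 10.1 in the TAC hearts, and 55.4, 67.8 and 63.7 in the control hearts. Every operated heart thus had a lower ratio than every control heart. The pair was chosen after the values were seen, so the separation is a description. The summed CPM of all 10 genes was 712, 870.0 and 1216 in KO-TAC, 875, 1315 and 892 in TAC, and 1132, 1261 and 1282 in control hearts, and Hspa5 made up 24.2% to 37.7% of it.

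Of the 4 low hearts of Hspa5, KO-TAC replicate 1 and TAC replicates 1 and 3 were also the lowest in summed cardiomyocyte markers, at 58376, 55988 and 16828 CPM, while KO-TAC replicate 2 held 84789 CPM. Activated fibroblast markers (12 of 12 detected in every group) summed to 153 to 555 CPM in KO-TAC, 212 to 1937 CPM in TAC and 156 to 160.0 CPM in control hearts. Endothelial markers (12 of 12) summed to 1630 to 1872 CPM in KO-TAC, 1772 to 4248 CPM in TAC and 1491 to 1623 CPM in control hearts. Resting fibroblast markers (12 of 12) summed to 1951 to 2222 CPM in KO-TAC, 1696 to 3521 CPM in TAC and 1659 to 1859 CPM in control hearts, and erythroid markers to 839 to 1216, 762 to 3477 and 738 to 1167 CPM in the same order. All 4 of these sums were highest in TAC replicate 3, the heart in which Creld2, Manf, Xbp1 and Pdia4 were highest. Macrophage markers (11 of 11) summed to 252 to 438 CPM in KO-TAC, 228 to 508 CPM in TAC and 247 to 265 CPM in control hearts, and plasma cell markers, a cell type rich in Xbp1, to 20.9 to 35.0, 13.4 to 34.0 and 18.9 to 21.9 CPM. Neutrophil markers, with Ly6g at 0 in every group, reached 10.4 CPM in TAC replicate 3 and at most 4.47 CPM elsewhere, and epicardial markers summed to 15.8 to 20.6 CPM in KO-TAC, 37.0 to 41.3 CPM in TAC and 13.9 to 24.1 CPM in control hearts. The part of these cell types in the levels of the 10 genes was not tested.

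**Figure D4:**
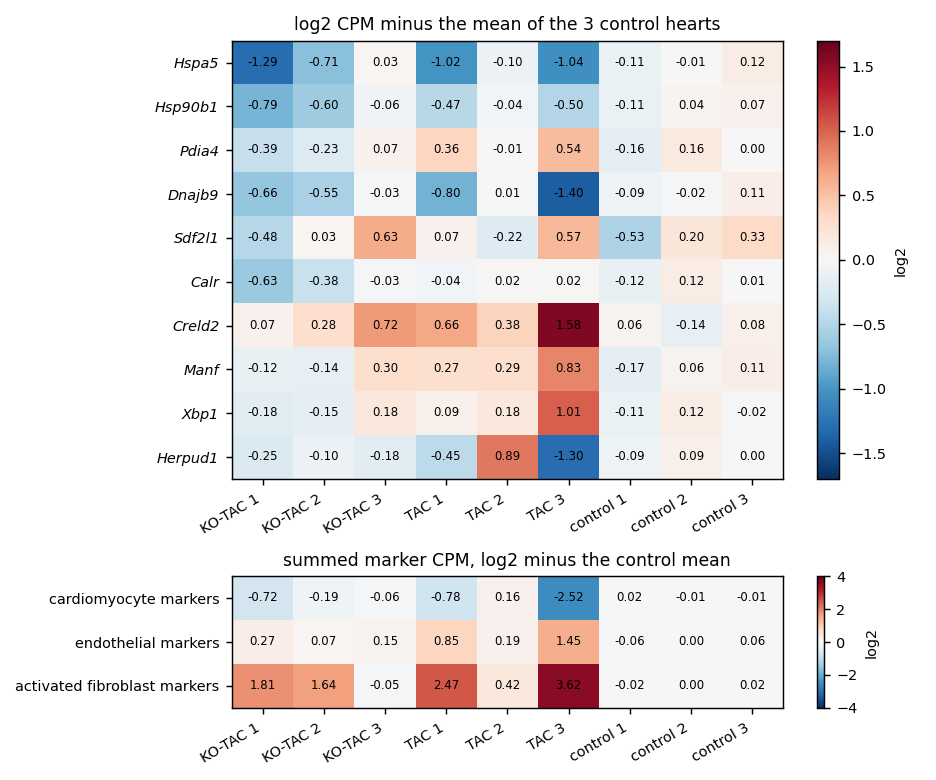
Log2 CPM of each gene (rows) in each heart (columns) minus the mean of the 3 control hearts, blue below and red above, with the summed CPM of cardiomyocyte, endothelial and activated fibroblast markers treated alike in the lower panel. TAC replicate 3 holds both the deepest blue of Dnajb9 (-1.40) and the deepest red of Creld2 (1.58), and TAC replicate 2 is close to the controls except for Herpud1 (0.89).

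Of the other genes of the pathway, 120 in 5 lists, none passed edgeR's test in any comparison. At an unadjusted p under 0.05, edgeR had 26 higher and 7 lower in TAC against control, beside 21.3% of all genes in either direction. It had 0 higher and 12 lower in KO-TAC against TAC, beside 7.45%, and 4 higher and 2 lower in KO-TAC against control, beside 5.76%. DESeq2 called 14 of the 120 higher and 0 lower in TAC against control, which is 11.7% beside the 8.55% of all genes. It called 2 lower in KO-TAC against TAC, Serpinh1 and Slc3a2, or 1.67% beside 1.03%, and 0 in KO-TAC against control, beside 0.468%. The balance of directions differed between tools. Limma-voom with quality weights called 34 higher and 32 lower in TAC against control, beside 38.0% of all genes, while leaving out TAC replicate 2 with edgeR gave 29 higher and 23 lower there, beside 27.5%. In KO-TAC against TAC, limma-voom called 4 higher, among them Cdnf (1.73, adjusted p = 0.027), Erlec1 (0.74, adjusted p = 0.047) and Nploc4 (0.76, adjusted p = 0.044), and 1 lower, Slc3a2 (-0.74, adjusted p = 0.031), beside 5.23% of all genes. In KO-TAC against control it called Asns (1.31), Ddit3 (0.92) and Atf5 (0.51) higher and Srpr (-0.57) lower, beside 5.20%.

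The list of other chaperones and foldases (32 of 32 genes kept by the count filter) had a median log2 difference of 0.10 in TAC against control, -0.14 in KO-TAC against TAC and -0.07 in KO-TAC against control. Within it Serpinh1, the collagen chaperone HSP47, was at 120.0, 139 and 150.0 CPM in KO-TAC, 203, 219 and 375 CPM in TAC, and 119, 115 and 107 CPM in control hearts. Its TAC hearts lay above all others, with log2 differences of 1.22 for TAC against control (edgeR adjusted p = 0.13) and -0.96 for KO-TAC against TAC (edgeR adjusted p = 0.55). DESeq2 called both, at 1.23 (adjusted p = 0.0011) and -0.99 (adjusted p = 0.044). Canx, calnexin, the membrane-bound counterpart of Calr, was at 150.0, 183 and 245 CPM in KO-TAC, 139, 255 and 98.6 CPM in TAC, and 285, 284 and 281 CPM in control hearts. It was lowest in the low hearts of Hspa5, but unlike Hspa5 all 6 operated hearts lay below the controls. Its log2 difference was -0.79 for TAC against control (edgeR adjusted p = 0.24). The disulfide isomerases Pdia3, Pdia6 and P4hb had log2 differences of 0.38, 0.02 and 0.05 in TAC against control and -0.46, -0.35 and -0.10 in KO-TAC against TAC.

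The list named for the PERK and ATF4 arm (22 of 22 genes kept) differed from the chaperones in its median. It had 0.72 in TAC against control, -0.49 in KO-TAC against TAC and 0.06 in KO-TAC against control. That difference between lists was not tested. Gene counts do not show the activity of PERK, and its part in these values was not tested either. Of the genes of this arm, 17 had positive values in TAC against control and 2 in KO-TAC against TAC. In the first comparison 11 had an unadjusted p under 0.05 by edgeR, all higher, beside the 21.3% of all genes given above. Atf4, its transcription factor, was at 65.8, 62.3 and 47.3 CPM in KO-TAC, 71.7, 83.7 and 107 CPM in TAC, and 46.0, 46.7 and 45.3 CPM in control hearts. The 3 groups did not overlap, with log2 differences of 0.93 for TAC against control (edgeR adjusted p = 0.14), -0.58 for KO-TAC against TAC (edgeR adjusted p = 0.65) and 0.34 for KO-TAC against control (edgeR adjusted p = 0.86). DESeq2 called the first (0.94, adjusted p = 0.003) and neither of the others. Of the 14 pathway genes that DESeq2 called higher in TAC than in control hearts, 10 were in this arm (10 of 22, beside 8.55% of all genes), and they are named because of that call. Limma-voom called 13 of the 22 higher and 4 lower, beside 38.0%. Nupr1, a stress-induced chromatin protein, had the highest log2 difference (3.60, adjusted p = 0.00032 with DESeq2), and Phgdh and Asns, which make serine and asparagine, had 1.78 and 1.41. The others were Mthfd2 (1.50), Ddit3 (1.37), which encodes the stress factor CHOP, Cebpg (0.87), Slc3a2 (0.86), the amino acid transporter subunit that fell by 0.82 in KO-TAC against TAC (adjusted p = 0.004 with DESeq2), Atf5 (0.75) and Ppp1r15a (0.71), whose product reverses the action of PERK. In the edgeR fit Atf5, a factor related to Atf4, had 0.74, -0.24 and 0.50 in the 3 comparisons, while Vldlr (-1.09, 0.55 and -0.54), Eif2s1 (-0.32, 0.24 and -0.08), which encodes the substrate of PERK, and the serine pathway enzyme Shmt2 (-0.23, -0.08 and -0.31) did not follow Atf4.

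Genes of endoplasmic reticulum-associated degradation (20 of 20 kept) had medians of -0.10, 0.07 and -0.07 in TAC against control, KO-TAC against TAC and KO-TAC against control, and the sensors and their processing factors (13 of 14 kept) -0.21, -0.08 and -0.16. Sel1l, the partner of the degradation ligase HRD1, averaged 55.1 ± 11 CPM in KO-TAC, 50.1 ± 9.4 CPM in TAC and 76.6 ± 0.84 CPM in control hearts. Its hearts in both operated groups lay below the controls, with log2 differences from control of -0.61 for TAC (edgeR adjusted p = 0.17) and -0.47 for KO-TAC (edgeR adjusted p = 0.85). Vcp, Nploc4 and Ube2g2, also abundant genes of that list, had -0.59, -0.59 and 0.09 in TAC against control. Of the sensors, Atf6 averaged 86.3 ± 33 CPM in KO-TAC, 62.8 ± 58 CPM in TAC and 103 ± 16 CPM in control hearts, a log2 difference of -0.72 for TAC against control with an SE of 0.59. Mbtps1, the protease that cleaves ATF6, had -0.21 there, and Wfs1, Bfar and Tmbim6 had -0.54, -0.47 and -0.25.

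Genes of entry into and exit from the endoplasmic reticulum (33 of 33 kept) had medians of 0.05, -0.08 and -0.01 in the 3 comparisons, and Ssr3, Rpn2 and Sec31a, the most abundant, had -0.50, 0.05 and -0.14 in TAC against control. DESeq2 called Ppib (1.14, adjusted p = 0.04), a proline isomerase of the chaperone list, Atf6b (0.50, adjusted p = 0.049), the relative of Atf6, and Sec61b (1.29, adjusted p = 0.041), a subunit of the translocation channel, higher in TAC than in control hearts. Cytosolic heat shock genes (18 of 18) had medians of 0.25, -0.27 and 0.13, with Hspa8 at 0.72, Hsp90ab1 at -0.15 and Cryab at 0.28 in TAC against control. Immediate early genes (21 of 22 kept), a list outside the pathway, had medians of 1.48, -1.52 and -0.14, and all 21 were positive in TAC against control and negative in KO-TAC against TAC. DESeq2 called 18 of them higher in TAC against control and 17 lower in KO-TAC against TAC, and of the heat shock genes 4 and 4, beside 8.55% and 1.03% of all genes called in either direction. Among the immediate early genes Klf6, Jun and Ccn1 had 0.76, 0.35 and 1.56 in the first and -0.90, -0.93 and -0.90 in the second. The 10 members, at 0.07 and -0.25, lay nearer to all genes than the immediate early genes did in both. In KO-TAC against TAC, other chaperones (-0.14), degradation genes (0.07), sensors (-0.08) and entry and exit genes (-0.08) lay nearer still. Heat shock genes (-0.27) and the PERK and ATF4 arm (-0.49) lay farther there.

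**Figure D5:**
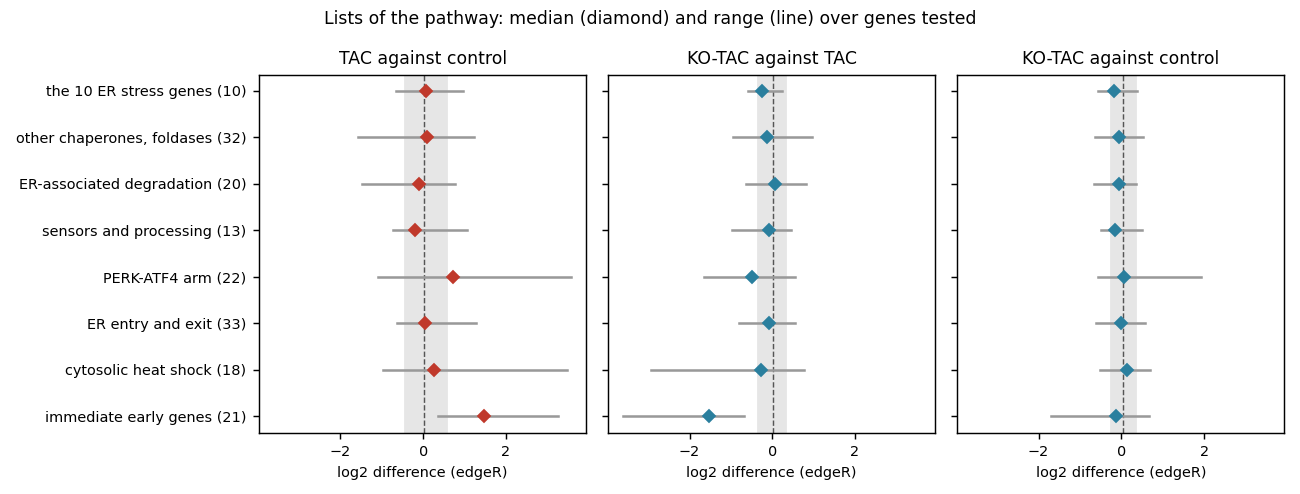
Median (diamond) and full range (line) of the log2 difference over the tested genes of each list, with the number of genes in brackets, for TAC against control, KO-TAC against TAC and KO-TAC against control. The dashed line is the median and the grey band the interquartile range of all tested genes; the medians of the 10 genes (0.07, -0.25 and -0.18) lie inside the band, those of the PERK and ATF4 arm (0.72 and -0.49) outside it in the first 2 panels.

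Likeness over the 9 libraries was measured as Pearson's r of log2 CPM among 9748 genes with a mean of at least 5 CPM outside all lists. The genes most like the mean of the 10 members were Tle4 (r = 0.918), Rnps1 (0.908), Sdc4 (0.897), Rpia (0.894), Mybbp1a (0.891) and Sec31b (0.882), the last a coat protein gene of vesicles that leave the endoplasmic reticulum. Those most like Hspa5 were Tiprl (0.989), Naa25 (0.982), Arid1b (0.981), G3bp1 (0.979) and Lpcat3 (0.979). Among those most like Xbp1 were Eftud2 (0.978), Klhl26 (0.976), Adamts9 (0.967) and Ripor1 (0.966). The closest genes of Hspa5 and Xbp1 thus shared no name. The 9 points share the groups and the differences in library makeup among the TAC hearts, so these values are descriptions.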

How the data were processed

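The authors deposited unnormalised read counts, 1 row per gene symbol and 1 column for each of 9 libraries; per the labels' protocols, Trizol-extracted total RNA went into a directional NEBNext library. Per the submitters' processing notes, the tools were DESeq2 1.42.0, StringTie 2.2.1, HISAT2 2.2.1, SAMtools 1.15 and Trim Galore 0.6.10, with GRCm38 and mm10. For the counting, tool, strand setting and annotation were not given in the sources used here. All 9 columns were matched to samples by their labels. No 2 libraries of a group agreed within sampling noise. Whether each heart was a separate animal is not said in the labels; p-values then measure only the spread among these 9 samples, which may be technical.

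All genes were tested with edgeR 4.0.16 (quasi-likelihood, two-sided, R 4.3.3), TMM factors and a minimum count of 10 (19051 genes), with the 3 groups in 1 fit. Alternatives used other scalings, filters, DESeq2 1.42.0 and limma 3.58.1, and left out each library. Code was tested on simulated data. Positions and exon lengths are from GENCODE's annotation of GRCm38. The members and lists were chosen with earlier results of these data known. Of each other list, the genes of highest mean CPM are named (5 for chaperones, degradation, sensors and PERK, 3 otherwise), since none passed; genes that DESeq2 called are named too, as chosen after seeing the data. Some genes that these rules name are not reported here.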

Additional observations from a re-analysis of the deposited data

How the results depend on the processing

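The members had at least 166 counts in each library, the lowest being Sdf2l1 in control replicate 1, and the part of depth was not tested. With 3 hearts a group, the median SD of log2 CPM over all genes was 0.604 in TAC and 0.171 in control hearts, and its part in the calls was not tested. The members' counts of calls were 0 in every edgeR setting on all 9 libraries, whichever factors, filter or block were used. Limma-voom with quality weights called 3 members in TAC against control. Leaving out 1 library called 0 to 3 there, 3 only without TAC replicate 2, and DESeq2 without that heart called 4 there and 1 in KO-TAC against TAC. Over all genes, TAC against control gave 1626 calls with DESeq2, 7230 with limma-voom, 0 to 5477 without 1 library, and 1208, 7134 and 759 with DESeq2 without TAC replicate 1, 2 or 3, a setting chosen after seeing the data. In the same order KO-TAC against TAC gave 195, 996, 0 to 13, and 371, 3706 and 152. KO-TAC against control gave 89, 991, 0 to 4, and 94, 364 and 320, with 2 without the low-count filter and 30 with only the 2 groups compared. With library size alone, the median of all genes shifted by 0.26 in TAC against control and 0.24 in KO-TAC against control, and the members' median became 0.37 and 0.04, or 0.08 and -0.24 relative to all genes. Hearts are numbered by their titles; the count table's own column names number the TAC hearts from 2 to 4 instead of 1 to 3. Deviations from the group mean had r = -0.255 to 0.124 between hearts of the same title number (2 of 9 pairs over 0.1). Between hearts of different title numbers, r was -0.434 to 0.355 over 18 pairs. By the column names, same-numbered hearts had r = -0.029 to 0.327 (1 of 7 pairs over 0.1), and a block by those names was not fitted. With the title's replicate number as a block (replicate block) 0 genes and 0 members were called. The members' median was then 0.08 in TAC against control.

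Of the log2 differences printed above from the edgeR fit, those that changed sign were as follows, and the cause was not tested. In TAC against control they were Calr and Herpud1 with library size alone (0.27 and 0.09), upper-quartile factors (0.06 and 0.01) and at least 1 CPM in 3 libraries (0.03 and 0.00), and Calr with RLE factors or DESeq2 (0.01 each), the replicate block or only the 2 groups compared (0.00 each). Library size alone also turned Hsp90ab1 (0.01), Mbtps1 (0.08), Sec31a (0.12) and Shmt2 (0.03), and limma-voom turned P4hb (-0.04), Pdia6 (-0.03) and Ube2g2 (-0.04). DESeq2 without TAC replicate 1 turned Calr (0.04), Herpud1 (0.18) and Cryab (-0.07), without replicate 2 Rpn2 (0.00) and Ube2g2 (-0.20), and without replicate 3 Sdf2l1 (-0.12), Herpud1 (0.36), Hsp90ab1 (0.11) and Pdia6 (-0.01). In KO-TAC against TAC, Herpud1 turned with limma-voom (0.26) and the replicate block (0.03), and limma-voom turned P4hb (0.04) and Shmt2 (0.41). There DESeq2 turned Hspa5 without TAC replicate 1 (-0.08), Hsp90b1 (0.02), Herpud1 (0.63) and Shmt2 (0.12) without replicate 2, and Hspa5 (-0.07), Dnajb9 (-0.04) and Sdf2l1 (0.19) without replicate 3. In KO-TAC against control, library size alone turned Pdia4 (0.04), Xbp1 (0.17), Herpud1 (0.05) and Eif2s1 (0.14), limma-voom Manf (-0.05) and Eif2s1 (0.04), and removal of mitochondrial genes Manf (0.00). With edgeR and 1 library left out, ranges that crossed 0 in TAC against control were Sdf2l1 -0.12 to 0.30, Calr -0.06 to 0.05, Herpud1 -0.82 to 0.36, Cryab -0.09 to 0.70, Hsp90ab1 -0.62 to 0.11, P4hb -0.01 to 0.10, Pdia6 -0.04 to 0.06, Rpn2 -0.01 to 0.09 and Ube2g2 -0.21 to 0.25. In KO-TAC against TAC they were Hspa5 -0.32 to 0.48, Hsp90b1 -0.37 to 0.04, Dnajb9 -0.03 to 0.69, Sdf2l1 -0.39 to 0.20, Herpud1 -0.54 to 0.64 and Shmt2 -0.26 to 0.14. In KO-TAC against control they were Sdf2l1 -0.25 to 0.32, Manf -0.14 to 0.09, Xbp1 -0.17 to 0.02 and Eif2s1 -0.21 to 0.04.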
